A study of Mus musculus with 4 samples.

Results

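The genes described here encode the subunits of the mitochondrial respiratory chain and of ATP synthase that are made from nuclear DNA. With them are 8 assembly factors of complex I that share the Nduf symbol, and Atp5s, a factor associated with ATP synthase. They were taken by symbol: protein-coding genes starting with Ndufa, Ndufb, Ndufc, Ndufs, Ndufv, Uqcr or Atp5, the Cox4 to Cox8 genes, and Sdha, Sdhb, Sdhc, Sdhd and Cyc1. The rule gave 94 of the 53379 genes in the count table, and 90 of them had enough counts to be tested. RNA sequencing counts came from astrocytes grown from the cortex of newborn C57BL/6 mice and harvested on day 14 in vitro, with 2 samples labelled wild type and 2 labelled Npas3-/-. Npas3 encodes a bHLH-PAS transcription factor, and both genotypes went through the same culture, in which other cells were shaken off before the astrocytes were replated. The labels name no allele, and they do not tell if replicate samples were different mice or dishes. The p-values therefore describe only how far these samples differ from each other, and that spread may be technical.

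The respiratory chain passes electrons from NADH and succinate to oxygen through complexes I to IV and pumps protons across the inner mitochondrial membrane, and ATP synthase (complex V) lets the protons back to make ATP. Except for complex II, each of these complexes joins nuclear-encoded subunits with a few that are made inside the mitochondrion from mitochondrial DNA. Astrocytes in the brain have a high glycolytic capacity and also respire.

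Total counts were between 82965565 and 86932708 per sample. Npas3 itself was counted 5129 and 8739 times in the wild-type libraries, against 2055 and 1386 times in those labelled Npas3-/- (log2 fold change -1.82, SE 0.33, adjusted p = 0.0181 in the quasi-likelihood test of edgeR, Benjamini-Hochberg adjusted over 18838 genes). In the fit corrected for GC content and length, described below, Npas3 was not called (log2 fold change -0.57, adjusted p = 0.154). Without Npas3-/- replicate 2 the uncorrected adjusted p was 0.101 in the same test. The astrocyte markers were present: the summed level of the 10 genes was 3899 to 4944 CPM in wild type and 6922 to 7126 CPM in Npas3-/-, and 3 were called higher and 3 lower. The sums for other cells were 170.4 to 312 CPM in wild type and 201 to 202 CPM in Npas3-/- for 10 neuron genes (3 called lower) and 53.8 to 57.5 CPM in wild type and 75.7 to 76.1 CPM in Npas3-/- for 10 microglia genes (0 called by edgeR and by DESeq2, 1 at an unadjusted p below 0.05). Oligodendrocyte lineage genes summed to 1502 to 1645 CPM in wild type and 1804 to 2198 CPM in Npas3-/- (1 called higher, 1 lower, with Mog at 0 in all samples), and endothelial and mural genes to 326 to 1296 CPM in wild type and 1389 to 1405 CPM in Npas3-/- (2 called lower). Meningeal and fibroblast genes summed to 1089 to 1633 CPM in wild type and 1148 to 1911 CPM in Npas3-/- (3 called lower), ependymal genes to 284 to 385 CPM in wild type and 538 to 664 CPM in Npas3-/- (2 called higher, with Tmem212 at 0), and muscle genes to 5.07 to 7.80 CPM in wild type and 12.1 to 12.6 CPM in Npas3-/- (0 called by edgeR and 1 by DESeq2, 1 at an unadjusted p below 0.05). These sums rest mostly on the highest genes of a list and are not amounts of a cell type. The median level of the tested genes was 379 CPM for astrocyte, 2.4 for neuron, 0.74 for microglia and 33 for oligodendrocyte lineage genes. It was 5.2 CPM for endothelial and mural, 15.3 for meningeal and fibroblast, 6.2 for ependymal and 0.87 for muscle genes. In bulk samples fewer cells of a type and less RNA per cell cannot be told apart, and the part of these cells in the results was not tested.

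Most nuclear respiratory chain genes were at higher levels in Npas3-/- than in wild-type astrocytes, and a small group went the other way. CPM, counts relative to the library total, are scaled here to library sizes with TMM, a normalization that assumes most genes are alike between samples. A gene is called where the adjusted p is below 0.05. Of the 90 tested genes, 24 were called higher in Npas3-/-, where 11.6% of all tested genes were, and 6 were called lower, where 21.5% of all tested genes were. Their median log2 fold change was 0.72, against -0.07 over all 18838 tested genes. The 2 genotypes did not overlap for 62 members with higher values in Npas3-/- (background 35.7% of tested genes) and for 11 with lower values (background 40.1%). The levels of all 24 called higher and all 6 called lower were apart in this way. In this fit the background for each complex and list, the marker lists above included, is 11.6% of all tested genes higher and 21.5% lower. DESeq2 called 3524 of the 18838 genes higher and 4848 lower. At an unadjusted p below 0.05, edgeR had 3817 higher and 5207 lower. These are the background where such counts are given. A count near these shares says nothing particular about its group.

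The number of calls, over all genes as among the members, depended on which libraries were in the fit. Without wild-type replicate 1 most calls stayed, and the median log2 fold change of the members was 0.82. Fits without a library also rest on fewer samples, and the part of this in the lost calls was not tested. Without wild-type replicate 2 there were 2 members called higher (Cox4i1 and Cox4i2) and 6 lower, among 485 higher and 2506 lower over all genes. Without Npas3-/- replicate 1 there were 14 higher and 1 lower (Cox7b), among 510 higher and 1915 lower over all genes. Without Npas3-/- replicate 2 the calls did not hold, among the members or over all genes. The median log2 fold change of the members was then 0.45. Fold changes also followed the GC content and length of the transcripts across the transcriptome. A second fit, called corrected below, therefore removed a smooth trend in both from each library, and it called 14 members higher (background 5.72%) and 5 lower (background 3.08%).

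**Figure D1:**
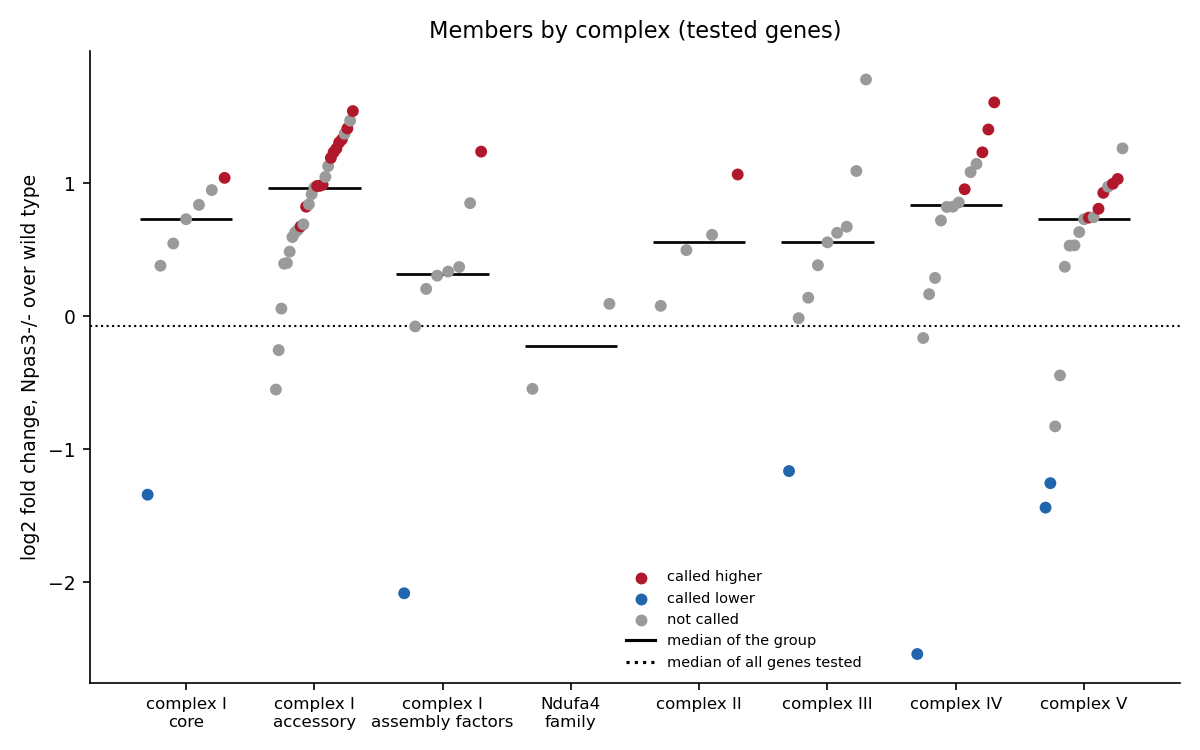
Log2 fold change of the 90 tested members (vertical axis, positive where higher in Npas3-/-) by complex; each point is 1 gene, coloured by its call, and each bar is a group median. The medians of complex I accessory subunits (0.97) and of complexes IV (0.84) and V (0.73) sit above the dotted line at -0.07 for all tested genes, and Cox7b (-2.54) is the lowest point.

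Promoter sequences from RefSeq (GRCm38.p6) were found for 74 of the 94 members, in 79 windows from 250 bases before to 50 bases after the start of transcription. They were searched on both strands for short strings bound by factors known for controlling these genes. The NRF1 string GCGCANGCG was in 29.1% of member windows, against 6.25% of all 32851 windows and 8.58% of the 21263 windows of protein-coding genes. The ETS string CCGGAAG (bound by GABPA) was in 22.8% against 8.86% and 11.6%, the YY1 string AANATGGCG in 13.9% against 2.38% and 3.12%, and the ERR string TCAAGGTCA in 2.53% against 0.423% and 0.334%. The ETS and YY1 strings can share bases, and an NRF1 match on both strands can be 1 palindrome. Matches are given as text only. Shown are the 150 bases before the start for a pair of genes called higher in the uncorrected test, Atp5h (chr11:115419920-115420069, minus strand) and Ndufb4 (chr16:37654369-37654518, minus strand), and a pair called lower in it, Ndufaf4 (chr4:24897933-24898082, plus strand) and Cox7b (chrX:106015550-106015699, plus strand), with the searched strings in capitals.
Atp5h: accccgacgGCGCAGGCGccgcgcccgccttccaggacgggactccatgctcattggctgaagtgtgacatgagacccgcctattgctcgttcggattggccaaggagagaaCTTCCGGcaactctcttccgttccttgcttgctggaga
Ndufb4: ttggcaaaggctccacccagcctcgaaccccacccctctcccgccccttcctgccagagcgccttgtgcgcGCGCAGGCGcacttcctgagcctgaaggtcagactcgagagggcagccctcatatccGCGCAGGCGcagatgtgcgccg
Ndufaf4: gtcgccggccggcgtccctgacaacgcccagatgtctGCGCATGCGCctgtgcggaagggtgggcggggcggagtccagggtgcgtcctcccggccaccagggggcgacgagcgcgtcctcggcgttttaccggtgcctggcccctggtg
Cox7b: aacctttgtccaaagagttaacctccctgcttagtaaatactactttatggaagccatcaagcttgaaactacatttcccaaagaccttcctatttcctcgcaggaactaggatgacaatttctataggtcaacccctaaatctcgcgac
Atp5h holds 1 NRF1 and 1 ETS match, Ndufb4 holds 2 NRF1 matches, Ndufaf4 holds 1 palindromic NRF1 match, and Cox7b holds no match in this stretch. An NRF1 match was in 7 of the 21 windows of members called higher, and in 1 of the 2 windows available for members called lower.

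Complex I takes electrons from NADH. Its 7 nuclear-encoded core subunits carry the flavin, the iron-sulphur clusters and the quinone site. Of these 1 rose (background 11.6%), 1 fell (background 21.5%) and 5 were not called (median 0.73). Ndufs1, the largest subunit and holder of several iron-sulphur clusters, had 144 and 173 CPM in wild type and 61.8 and 63.1 CPM in Npas3-/-. Both Npas3-/- values were under the lower wild-type value, and Ndufs1 fell from 158 ± 20.5 to 62.4 ± 0.929 CPM (SD, n = 2 each), with log2 fold change -1.34 (SE 0.20, adjusted p = 0.014) by the quasi-likelihood test of edgeR. Ndufs8, which also carries iron-sulphur clusters, had 87.2 and 71.7 CPM in wild type and 148 and 179 CPM in Npas3-/-, without overlap. It rose, with log2 fold change 1.04 (SE 0.22, adjusted p = 0.0239) in the same edgeR test. The core genes that were not called stood higher in both Npas3-/- libraries. Among them, Ndufs7 had 87.2 and 65.6 against 115 and 180.1 CPM. Without the correction Ndufs1 was at 0.395 times and Ndufs8 at 2.06 times the wild-type mean. With it the log2 fold changes were -0.12 for Ndufs1 and 0.25 for Ndufs8, and neither was called (adjusted p = 0.627 and 0.327, edgeR).

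The 29 accessory subunits of complex I surround the core and are needed to assemble and stabilise it. Of these 12 rose and 0 fell in the quasi-likelihood test of edgeR (1 lower at an unadjusted p below 0.05, and 0 by DESeq2), and their median log2 fold change was 0.97. Ndufa7, whose call had the smallest p of the group, had 96.9 and 80.8 CPM in wild type and 187 and 231 CPM in Npas3-/-, with log2 fold change 1.23 (SE 0.22, adjusted p = 0.018). Ndufa11, a membrane subunit that links parts of the membrane arm, had 105 and 96.4 against 187 and 209.8 CPM and log2 fold change 0.98 (SE 0.19, adjusted p = 0.0213). Ndufb7, which faces the intermembrane space, had 83.1 and 67.1 against 152 and 225 CPM and log2 fold change 1.33 (SE 0.27, adjusted p = 0.0227). In these 3 genes the genotypes did not overlap, and each Npas3-/- library was well above both wild-type libraries. The other genes of the group that rose were Ndufa6, Ndufa10, Ndufa13, Ndufb4, Ndufb8, Ndufb9, Ndufb10, Ndufb11 and Ndufv3, with log2 fold changes from 0.68 (Ndufa10) to 1.54 (Ndufa13). Of the 12, Ndufb8 alone was called in the corrected fit, and the others had corrected log2 fold changes from -0.0027 (Ndufa11) to 0.79 (Ndufb11).

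Ndufb8 (ENSMUSG00000025204.10, mm10 chr19:44548572-44555440), another subunit of the membrane arm, rose in the corrected fit too. It had 84.0 and 55.2 CPM in wild type and 129 and 215 CPM in Npas3-/-, with log2 fold change 1.31 (SE 0.34, adjusted p = 0.0391) by the quasi-likelihood test of edgeR. With the correction it stood at 1.98 (adjusted p = 0.0299, the same test). The 17 accessory genes that were not called ranged from -0.55 (Ndufb5) to 1.47 (Ndufa12). Ndufb5 and Ndufs4 were the accessory genes whose Npas3-/- values both lay under wild type, with 69.1 and 62.7 against 48.3 and 41.6 CPM for Ndufb5 and 76.7 and 72.3 against 57.4 and 67.5 CPM for Ndufs4. Several small subunits were high in 1 library: Ndufa12 had 23.1 and 26.6 CPM in wild type but 33.4 and 104 CPM in Npas3-/-, and Ndufa2 89.2 and 54.2 against 84.6 and 229 CPM. In both, Npas3-/- replicate 2 stood far above the other 3 libraries.

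Assembly factors help build complex I but are absent from the finished enzyme. Among the 8 with an Ndufaf symbol, 1 rose (background 11.6%) and 1 fell (background 21.5%), with a median of 0.32. Ndufaf4 had 12.8 and 8.42 CPM in wild type and 2.80 and 2.21 CPM in Npas3-/-. It fell, with log2 fold change -2.08 (SE 0.38, adjusted p = 0.0187) by the quasi-likelihood test of edgeR, and the genotypes did not overlap. In the corrected fit it was at -0.082 and not called (adjusted p = 0.937, edgeR). Ndufaf8 had 18.9 and 14.0 against 30.3 and 47.2 CPM and rose (log2 fold change 1.24 (SE 0.32, adjusted p = 0.0381), same edgeR test), and it was not called with the correction (0.34). Ndufaf3, with 33.0 and 22.9 against 40.9 and 60.0 CPM, was not called. The other 5 had log2 fold changes between -0.077 (Ndufaf1) and 0.37 (Ndufaf6).

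Complex II, succinate dehydrogenase, is also an enzyme of the tricarboxylic acid cycle, and all 4 of its subunits are nuclear. Sdhb, the iron-sulphur subunit, had 186 and 139 CPM in wild type and 282 and 399 CPM in Npas3-/- and rose (log2 fold change 1.07 (SE 0.27, adjusted p = 0.0364), the quasi-likelihood test of edgeR). Sdha, the flavin subunit that binds to it, had 529 and 447 against 478 and 552 CPM, so that the genotypes overlapped. The membrane anchors were in between: Sdhc had 288 and 250.2 against 366 and 394 CPM (log2 fold change 0.50) and Sdhd 194 and 149 against 227 and 297 CPM (0.61), and neither was called. In the corrected fit Sdhc was the gene called, with a log2 fold change of 0.96 (adjusted p = 0.0328), and Sdhb was not (0.28, adjusted p = 0.308, both by the quasi-likelihood test of edgeR).

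Complex III passes electrons from ubiquinol to cytochrome c. Of its 9 nuclear genes 1 fell (background 21.5%) and 0 rose (background 11.6%) in the edgeR test, and the median was 0.56. Uqcrb, which binds near the quinone site, had 69.2 and 73.3 CPM in wild type and 31.6 and 32.0 CPM in Npas3-/-, and fell (log2 fold change -1.16 (SE 0.19, adjusted p = 0.0165), the quasi-likelihood test of edgeR). It was not called in the corrected fit, at 0.17. The largest difference in the other direction was in Uqcr11, a small subunit: its values of 81.8 and 42.3 CPM in wild type and 108 and 319 CPM in Npas3-/- did not overlap. Npas3-/- replicate 2 was far above the rest, and the difference did not pass the test (log2 fold change 1.78 (SE 0.59, adjusted p = 0.0654), edgeR). Uqcrq had 183 and 118 against 246 and 395 CPM (log2 fold change 1.09 (SE 0.34, adjusted p = 0.0569), edgeR). Uqcr10, the most abundant complex III transcript per length, had 139 and 118 against 149 and 229.9 CPM (log2 fold change 0.56). With 4 genes higher at an unadjusted p below 0.05, DESeq2 called 3 (Uqcr11, Uqcrc1 and Uqcrq), where it called 3524 of all 18838 tested genes higher. The catalytic subunits Cyc1 (cytochrome c1) and Uqcrfs1 (the Rieske iron-sulphur protein) had log2 fold changes of 0.67 and 0.14 and were not called.

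Complex IV, cytochrome c oxidase, hands electrons to oxygen, and its nuclear subunits surround a catalytic core made from mitochondrial DNA. Of 18 genes 14 were tested, and 4 rose (background 11.6%), 1 fell (background 21.5%) and 9 were not called (median 0.84). Cox7b (ENSMUSG00000031231.4, mm10 chrX:106015700-106022450), a small membrane subunit, had 74.9 and 88.5 CPM in wild type and 13.5 and 14.6 CPM in Npas3-/-, far apart. It fell from 81.7 ± 9.59 to 14.0 ± 0.762 CPM (SD, n = 2 each), to 0.172 times the wild-type mean (log2 fold change -2.54 (SE 0.22, adjusted p = 0.013), the quasi-likelihood test of edgeR). This was the strongest fall among the members, and Cox7b was lower in the corrected fit too (-1.09, adjusted p = 0.0362, same test). Cox6c (ENSMUSG00000014313.15, mm10 chr15:35925886-35938246), also a small membrane subunit, had 147 and 126 CPM in wild type and 273 and 368 CPM in Npas3-/-. It rose without the correction (log2 fold change 1.23 (SE 0.24, adjusted p = 0.0207)) and with it (1.59, adjusted p = 0.0245), both by the quasi-likelihood test of edgeR.

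Several complex IV subunits exist as isoforms made from separate genes, often one in most tissues and one tied to muscle, lung or testis. Both forms of subunit 4 rose. Cox4i1, the general form, had 267 and 234 CPM in wild type and 603 and 723 CPM in Npas3-/- (log2 fold change 1.40 (SE 0.22, adjusted p = 0.015), the quasi-likelihood test of edgeR). Cox4i2, known from lung and from low oxygen, had 7.58 and 8.20 against 19.8 and 28.3 CPM (log2 fold change 1.61 (SE 0.30, adjusted p = 0.0193), same test). Per length, Cox4i2 was 2.88% and 3.53% in wild type and 3.32% and 3.92% in Npas3-/- of the 2 genes' summed TPM, so the mix of the forms overlapped between genotypes. Neither was called in the corrected fit (0.39 and 0.61).

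Among the genes with a Cox7a symbol, Cox7a2l (ENSMUSG00000024248.13, mm10 chr17:83501918-83517330) had 197 and 159 CPM in wild type and 305 and 387 CPM in Npas3-/-. It rose in both fits (log2 fold change 0.95 (SE 0.23, adjusted p = 0.0331) uncorrected, 0.79 and adjusted p = 0.0463 corrected, the quasi-likelihood test of edgeR). Cox7a2, the general form, had 129 and 108 against 94.5 and 118 CPM and overlapped (-0.16, adjusted p = 0.584), but was called lower in the corrected fit (-0.72, adjusted p = 0.0454, both edgeR). Cox7a1, the muscle form, had 11.3 and 9.06 against 15.1 and 28.0 CPM and was not called (log2 fold change 1.08 (SE 0.38, adjusted p = 0.075), edgeR). Its share of the summed TPM of Cox7a1 and Cox7a2 was 10.6% and 10.2% in wild type and 17.9% and 24.4% in Npas3-/-, without overlap. The difference between these shares was not tested.

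The other isoforms gave smaller differences. Cox6a1, the general form of subunit 6a, had 389 and 306 against 520.5 and 737 CPM (log2 fold change 0.86 (SE 0.27, adjusted p = 0.0575), edgeR), while its muscle partner Cox6a2 was counted 4 and 0 times in wild type, against 8 and 0 times in Npas3-/-, and was not tested. Cox6b1 had 199 and 171 against 263 and 348 CPM (0.72), and Cox6b2, best known from testis, 95.7 and 69.5 against 101 and 191 CPM (0.82). Cox6b2 made up 33.6% and 30.0% in wild type and 28.9% and 36.8% in Npas3-/- of the pair's TPM. The genotypes overlap in that share. Cox8a had 345 and 268 against 456 and 628 CPM (log2 fold change 0.82 (SE 0.26, adjusted p = 0.06), edgeR), and Cox7b2, Cox8b and Cox8c had 0 counts in all 4 libraries.

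Ndufa4 was first assigned to complex I and is now placed in complex IV. It had 127 and 122 CPM in wild type and 78.3 and 91.9 CPM in Npas3-/-, without overlap, and was not called (log2 fold change -0.55 (SE 0.19, adjusted p = 0.0773), the quasi-likelihood test of edgeR). The paralogue Ndufa4l2, known as a target of hypoxia signalling, was near the bottom of the range in every library, with 0.642 and 1.59 CPM in wild type and 0.736 and 1.65 CPM in Npas3-/-, and the genotypes overlapped. Its log2 fold change was 0.094 with an SE of 0.70.

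ATP synthase is a rotary enzyme: the F1 head makes ATP, a ring of c subunits turns in the membrane, and a peripheral stalk holds the head still. Of 17 genes, 5 rose (background 11.6%) and 2 fell (background 21.5%) in edgeR's uncorrected test, with a median of 0.73. The 5 head genes lay between 0.53 (Atp5c1) and 1.26 (Atp5e), all higher in both Npas3-/- libraries. In edgeR's test 0 were called, and 4 had an unadjusted p below 0.05 (background 3817 higher of 18838 genes). DESeq2 called 4 higher, Atp5a1, Atp5b, Atp5d and Atp5e (background 3524 higher of 18838 genes). Atp5b, the catalytic beta subunit and the most abundant member per length, had 1962 and 1482 CPM in wild type and 2694 and 3016 CPM in Npas3-/- (log2 fold change 0.73 (SE 0.25, adjusted p = 0.0721), edgeR). In the peripheral stalk 1 gene rose and 1 fell. Atp5f1 (ENSMUSG00000000563.17, mm10 chr3:105942698-105960099), the b subunit, had 235 and 262 CPM in wild type and 87.4 and 95.7 CPM in Npas3-/- and fell, to 0.369 times the wild-type mean (log2 fold change -1.44 (SE 0.19, adjusted p = 0.013), edgeR). Atp5h, the d subunit of the same stalk, had 173 and 154 against 297 and 324 CPM and rose (log2 fold change 0.93 (SE 0.19, adjusted p = 0.0246), edgeR). Atp5h was not called with the correction (0.67, adjusted p = 0.0599, edgeR). Of the other stalk genes, Atp5j was lower in both Npas3-/- libraries (-0.44) and Atp5o higher (0.37), and neither was called.

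The c-ring subunit is encoded by 3 genes that give the same mature protein. Atp5g1 (ENSMUSG00000006057.15, mm10 chr11:96068852-96075670) had 106 and 65.1 CPM in wild type and 164 and 187 CPM in Npas3-/- and rose (log2 fold change 1.03 (SE 0.29, adjusted p = 0.0438), the quasi-likelihood test of edgeR). Atp5g2 rose as well, with 242 and 170.0 against 377 and 444 CPM (log2 fold change 1.00 (SE 0.25, adjusted p = 0.0363), same test), but was at -0.036 and not called with the correction. Atp5g3, the highest of the 3 per length in the mean of the 4 samples, though under Atp5g2 in Npas3-/- replicate 1, had 343 and 269.6 against 319.7 and 566 CPM and overlapped (0.53, adjusted p = 0.253, same edgeR test). As a share of the summed TPM of the c-ring genes, Atp5g3 was 58.0% and 60.9% in wild type and 45.2% and 55.4% in Npas3-/-, and Atp5g2 39.2% and 36.9% in wild type and 51.2% and 41.8% in Npas3-/-. Both shares were apart between genotypes, Atp5g3 lower and Atp5g2 higher in Npas3-/-, and their difference was not tested. Atp5g1 was 2.75% and 2.25% in wild type and 3.56% and 2.80% in Npas3-/-, barely apart. The shares are not corrected for GC content, which was 63.3% for Atp5g2 and 50.5% for Atp5g3. With the correction the order turned, with log2 fold changes of 0.16 for Atp5g3, not called, and -0.036 for Atp5g2.

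Small subunits of the membrane part also went both ways. Atp5l (ENSMUSG00000038717.8, mm10 chr9:44912557-44920742), the g subunit, which helps pair ATP synthase into dimers, had 119 and 104 CPM in wild type and 186 and 187 CPM in Npas3-/-, and rose (log2 fold change 0.74 (SE 0.19, adjusted p = 0.0364), the quasi-likelihood test of edgeR). Atp5mpl (ENSMUSG00000021290.6, mm10 chr12:111961375-111966977), a small proteolipid beside the c-ring, had 55.7 and 63.7 against 22.7 and 27.3 CPM, and fell (log2 fold change -1.26 (SE 0.22, adjusted p = 0.0181), same test). Atp5j2, the f subunit, rose without the correction (0.81; 0.59 and not called with it), and Atp5k, the e subunit, was not called (0.63). With the correction the log2 fold changes were 2.20 for Atp5g1, 0.95 for Atp5l, -1.40 for Atp5f1 and -2.05 for Atp5mpl, and all 4 were called in the same direction as before. Atp5j was called lower in the corrected fit alone (-1.36, adjusted p = 0.0245, edgeR). Atp5s, the associated factor, was lower in both Npas3-/- libraries (-0.83) and at 0.86 with the correction. It was called in neither edgeR fit and called lower by DESeq2.

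**Figure D2:**
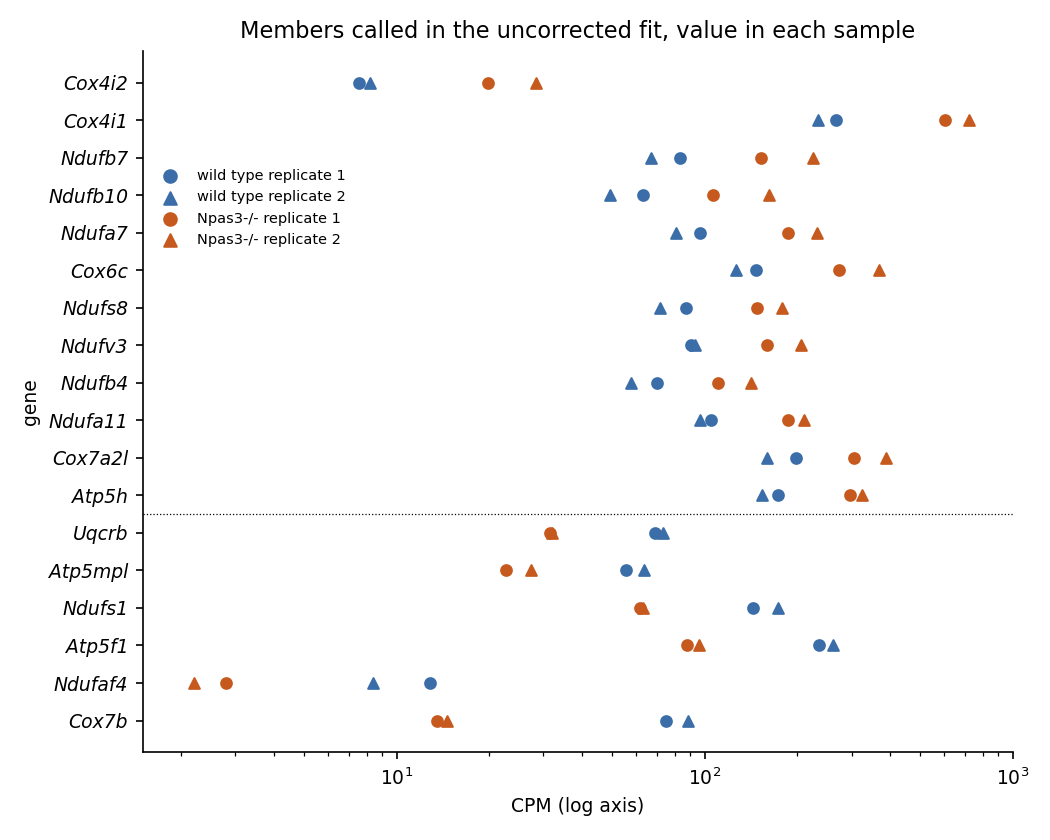
CPM on a log axis in each of the 4 samples, for the 6 members called lower (under the dotted line) and the 12 of the 24 called higher with the smallest p. Circles are replicate 1 and triangles replicate 2 of each genotype; no wild-type point lies among the Npas3-/- points of its gene, and the gap is widest for Cox7b, at 74.9 and 88.5 CPM against 13.5 and 14.6 CPM.

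Added up, the 94 genes held 14782 and 12020.0 CPM in wild type and 18635 and 24272 CPM in Npas3-/-, so that both Npas3-/- libraries lay above both wild-type libraries. As a plain share of each library's counts, without TMM, they took 1.58% and 1.31% in wild type and 1.78% and 2.18% in Npas3-/- (Wilson 95% intervals within 0.0031 percentage points, counting error only). The ratio of the mean Npas3-/- sum to the mean wild-type sum was 1.60 in CPM and 1.36 in plain shares, because TMM scaled the Npas3-/- libraries up. In CPM the nuclear subunits of complex I held 3246 and 2695 CPM in wild type and 4182 and 6229 CPM in Npas3-/-. Complex IV held 2316 and 1909 CPM in wild type and 3137 and 4229.6 CPM in Npas3-/-, and complex V 5894 and 4692 CPM in wild type and 7669 and 9019 CPM in Npas3-/-. Complex II held 1197 and 985 CPM in wild type and 1352 and 1643 CPM in Npas3-/-, and complex III 1838 and 1483 CPM in wild type and 2043 and 2828 CPM in Npas3-/-. All 5 sums were apart in CPM. In plain shares the complex II sums were barely apart (0.128% in the higher wild-type and 0.129% in the lower Npas3-/- library), the complex III sums overlapped between genotypes, and so did those of the complex I assembly factors.

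The partners made from mitochondrial DNA were at lower levels in Npas3-/-. All 13 protein genes of the mitochondrial genome had lower values in both Npas3-/- libraries, and 12 were called lower (median log2 fold change -2.79, and -0.81 with 1 called lower in the corrected fit). For complex IV the mitochondrial core genes summed to 9448 and 15695 CPM in wild type and 3601 and 2437 CPM in Npas3-/-, and for complex I to 4339 and 8819.5 CPM in wild type and 2003 and 1332 CPM in Npas3-/-. The 2 genomes thus stood in opposite directions within complexes I, III, IV and V, with higher summed CPM for the nuclear genes and lower for the mitochondrial genes. The mitochondrial genes had a median GC content of 37.1%, against 50.7% for the nuclear members, and the part of GC content in this difference was not tested separately.

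**Figure D3:**
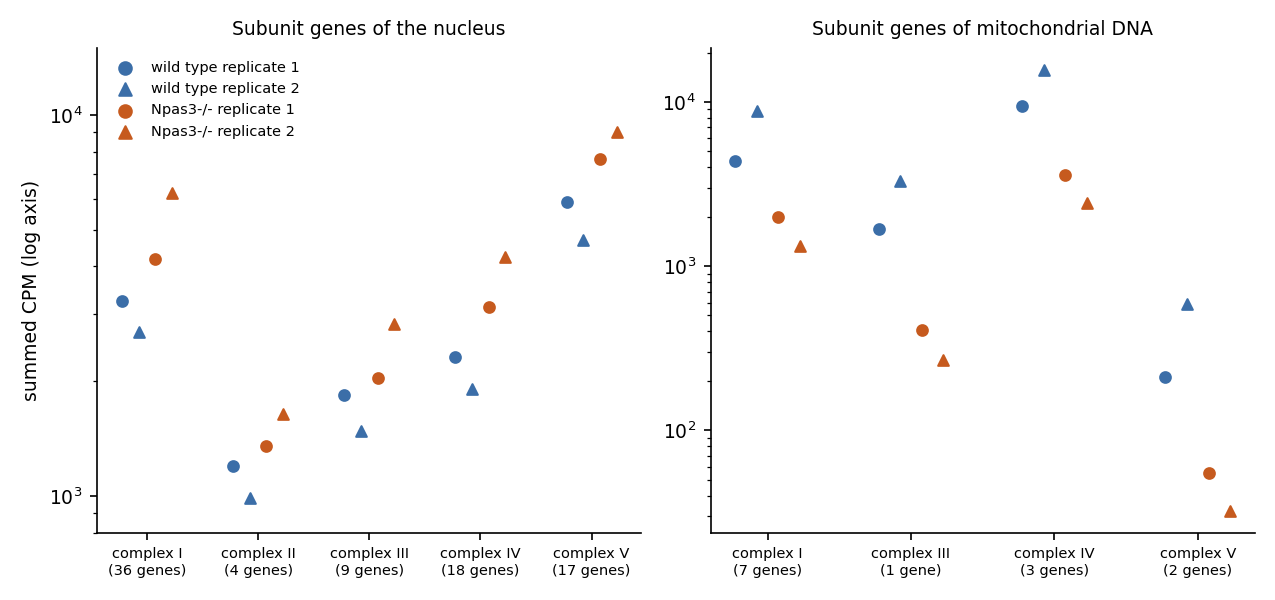
Summed CPM per sample (log axes, on different ranges) of the nuclear subunit genes by complex, left, and of the mitochondrial subunit genes, right. Ndufa4 genes and assembly factors are not included, and complex V includes Atp5s. The orange Npas3-/- points lie above the blue wild-type points for each nuclear sum and below them for each mitochondrial sum.

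Within the members, as over the transcriptome, the log2 fold change moved with the GC content of the transcripts (rho by Spearman 0.539 across 90 genes that share the same 4 libraries, and 0.669 across 18817 tested genes). Members are also short: their median transcript length was 926 bases, against 2749 for all tested genes. Among 13 members with under 45% GC, 3 fell (Cox7b, Ndufaf4 and Uqcrb) while 0 rose by edgeR's test and 1 by DESeq2 (Ndufb2), with a median of -0.015. All tested genes in that class had a median of -2.12. The share of them that was called was not counted, so the 3 calls cannot be set against a background. Between 45% and 50% GC the medians were 0.50 for 25 members and -0.61 for all genes, between 50% and 55% 0.75 for 27 members and 0.35, and from 55% up 0.98 for 25 members and 0.76. The members thus stood above the median of all genes in each class, by the widest margin where GC was lowest. The classes were not matched for length or level, and the median level was 129 CPM for members and 12.6 CPM for all tested genes. Atp5f1 and Atp5mpl, at 49.1% and 53.9% GC, fell in classes where the other members mostly stood higher.

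**Figure D4:**
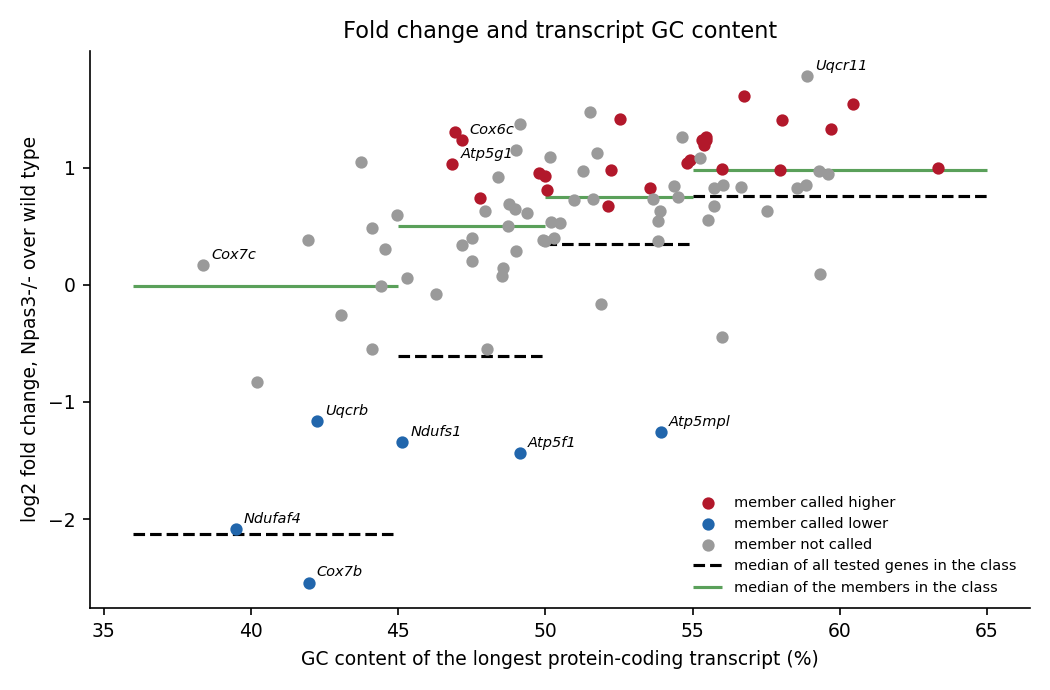
Log2 fold change (vertical axis) against GC content of the longest protein-coding transcript in percent (horizontal axis) for the 90 tested members, with class medians of the members (green) and of all tested genes (dashed). Green lines lie above dashed lines in all 4 classes, by the most under 45% GC (-0.015 against -2.12).

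With the correction for GC content and length the median of the members was 0.34, against 0.089 for all tested genes. Of the 24 genes called higher without it, 5 were called higher with it (Atp5g1, Atp5l, Cox6c, Cox7a2l and Ndufb8), and of the 6 called lower 3 were (Atp5f1, Atp5mpl and Cox7b). The sign of the log2 fold change was positive in both fits for 61 members, negative in both for 8, and differed for 21. By complex the corrected medians were 0.51 for complex I accessory subunits (6 rose, 0 fell), 0.55 for complex II, 0.32 for complex V, 0.25 for complex IV and 0.17 for complex III. For the complex I core the median was -0.0049. With the trend fitted on genes of at least 1 CPM, a setting chosen after seeing the data, the medians of complexes III, IV and V were -0.047, -0.029 and -0.015, below 0, while those of the accessory subunits (0.22) and of all members (0.13) were above it. Single calls turned as well: the corrected log2 fold change was -0.003 for Ndufa11 and -0.036 for Atp5g2, both called higher without the correction, and 0.17 for Uqcrb, called lower without it, and none of the 3 was called. Without Npas3-/- replicate 1 or 2 the corrected fit called 0 members and 0 of all tested genes (33 and 25 members at an unadjusted p below 0.05, edgeR), and without wild-type replicate 2 it called 6 members higher and 4 lower, among 468 higher and 229 lower over all genes. Genes called only after correction were Ndufa9, Ndufab1, Ndufb2, Ndufb3, Ndufc1, Ndufv2, Ndufaf7, Sdhc and Uqcrc2, all higher, and Atp5j and Cox7a2, both lower. All 9 of those called higher have a GC content under 50%, and their corrected log2 fold changes ran from 0.91 (Ndufa9) to 2.84 (Ndufb2). The corrected fold changes of the members ran against GC content (rho -0.558 across the 90 genes), the opposite sign to the uncorrected relation.

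Limits of the correction touch several of these genes. Ndufb2, Atp5g1, Ndufab1 and Ndufb8 have a long annotated isoform (4371, 4715, 3479 and 2142 bases) that sets their length and GC content here. The mean length and mean GC content of each gene's transcripts were used instead in another fit. There Ndufb8, Ndufc1, Sdhc and Uqcrc2 (higher) and Atp5f1 and Cox7b (lower) were not called. Atp5c1, Atp5h, Cox7c, Ndufaf1 and Ndufs4 were called higher in it and Ndufs1 lower.

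**Figure D5:**
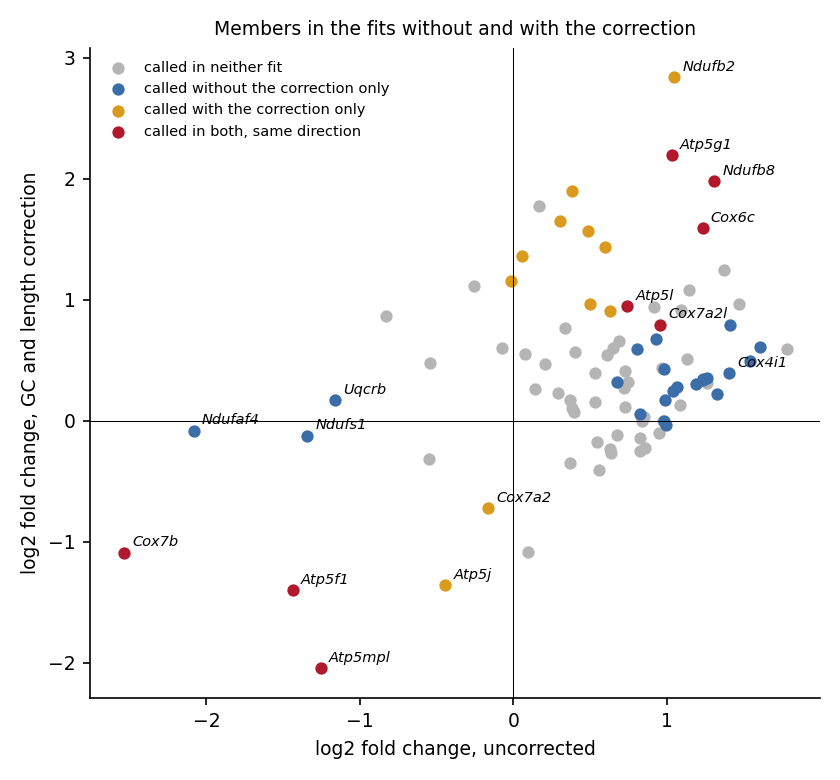
Log2 fold change of the 90 tested members without (horizontal axis) and with (vertical axis) the GC and length correction; each point is 1 gene, coloured by the fits in which it was called. The 8 red points, called in both with the same sign, include Cox7b, Atp5f1 and Atp5mpl at lower left, while Uqcrb, Ndufs1 and Ndufaf4 lie near 0 on the vertical axis.

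Levels between genes can be compared per transcript length, as TPM averaged over the 4 samples. The highest were Atp5b (2498 TPM), Cox6a1 (1769), Cox8a (1599), Atp5a1 (1213) and Cox4i1 (1208). The median gene was at 489.6 TPM in complex IV, 457 in complex V, 434 in complex III, 372 in complex II, 218 among accessory and 215 among core subunits of complex I. Complex I assembly factors were lower, at a median of 36.4 TPM. Of the 94 genes, 84 were above 10 CPM in every library. The longest annotated transcript sets the length, so TPM is understated for genes such as Ndufb2 (31.1 TPM).

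The libraries of one genotype also differed across the members. Npas3-/- replicate 2 was above replicate 1 for 84 of the 90 tested genes, by a median of 0.43 on the log2 scale, and wild-type replicate 2 was above replicate 1 for 12, with a median difference of -0.31. Over all genes these medians were 0 and 0.002. The median difference within Npas3-/- was 0.61 for complex I accessory subunits and 0.18 for complex V. For 74 of the 90 genes the highest of the 4 values was in Npas3-/- replicate 2.

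Other genes of mitochondrial respiration were described by lists, beside 11.6% higher and 21.5% lower over all tested genes without the correction. The 33 assembly factors of complexes II to V had 7 higher and 6 lower (median 0.33), and the 9 complex I assembly factors without an Nduf symbol 1 higher and 2 lower (0.27). Lrpprc, which stabilises mitochondrial mRNAs, had 59.5 and 74.5 CPM in wild type and 15.1 and 13.6 CPM in Npas3-/- and fell in both fits (log2 fold change -2.22 (SE 0.24, adjusted p = 0.013) uncorrected, -1.17 and adjusted p = 0.026 corrected, the quasi-likelihood test of edgeR). Tmem70, a factor for ATP synthase assembly, fell without the correction (-1.29), as did the complex I factors Tmem126b (-1.90) and Lyrm2 (-1.07). These 3 were not called in the corrected fit. Among 17 genes of electron carriers and coenzyme Q synthesis, 4 were higher and 3 lower (0.48), with Coq10b (-2.16) and Etfdh (-1.38) among those that fell. Neither was called with the correction (-0.59 and -0.69). Among 7 tested carriers of ADP, ATP and phosphate, 1 was higher (Slc25a25, 1.14) and 1 lower (Slc25a24, -2.86), with a median of 0.24. With the correction these 2 were at 0.90 and -1.06 and were not called.

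The tricarboxylic acid cycle feeds NADH and succinate to the chain. In its list 2 of 18 genes were higher (background 11.6%) and 6 lower (background 21.5%), with a median of -0.012. Dld, a subunit shared by several dehydrogenases, had 82.0 and 143 CPM in wild type and 13.3 and 12.5 CPM in Npas3-/- and fell in both fits (log2 fold change -3.12 (SE 0.33, adjusted p = 0.013) uncorrected, -1.14 and adjusted p = 0.0245 corrected, the quasi-likelihood test of edgeR). Pdha1, of pyruvate dehydrogenase, fell in the uncorrected fit (-1.51; -0.34 and not called with the correction). Of 20 regulators of respiratory chain genes 8 fell (background 21.5%) and 0 rose (background 11.6%) by edgeR, with a median of -0.63. At an unadjusted p below 0.05 in edgeR 3 were higher (background 3817 of 18838 genes), and DESeq2 called 2 higher (background 3524). Yy1, whose binding string was searched above, had 101 and 114 against 34.3 and 33.7 CPM and fell in both fits (log2 fold change -1.66 (SE 0.19, adjusted p = 0.013) uncorrected, -1.11 and adjusted p = 0.0274 corrected, edgeR). Tfb2m, a mitochondrial transcription factor, fell without the correction (-2.61; corrected -0.92, adjusted p = 0.0654, edgeR).

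Ribosomal protein genes were counted in the same way, beside the same background of 11.6% higher and 21.5% lower. Of 78 mitochondrial ribosomal protein genes 29 were higher and 8 lower (median 0.69, corrected 0.39), and of 87 tested cytosolic ones 47 were higher and 3 lower (median 1.03, corrected 0.65). The members, at 0.72 and 0.34, had medians nearer those of the mitochondrial than of the cytosolic ribosomal genes, and no test of a difference between these lists was made.

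Near-identical copies and overlapping genes make some counts uncertain. The annotation holds 13 genes with symbols of the same kind that are not protein-coding, mostly processed pseudogenes, and 8 of them passed the count filter. Cox6c2, a copy of Cox6c, was counted 154 and 133 times in wild type, against 306 and 793 times in Npas3-/-, and Ndufab1-ps had 757 and 442 against 1517 and 1396. Another annotated gene overlaps 40 of the 94 members, among them Cox4i1 (Emc8 and Gm20388), Atp5f1 (Wdr77 and Gm42890), Ndufb8 (Gm20538), Cox6c (Vps13b) and Atp5j (Gabpa). Whether reads in such stretches were counted by strand is not given in the sources used here.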

How the data were processed

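The authors deposited raw, whole-number counts by Ensembl gene identifier, 1 column for each of the 4 samples. The build mm10 and the tools featureCounts, HISAT2 2.1.0 and Trimmomatic 0.3.8 are named in the submitters' processing notes. How the counting used strand, shared reads and gene models is not given in the sources used here, so counts of overlapping genes and near-identical copies are uncertain. RNA was extracted with TRIzol, per the labels' protocols. Columns were matched to samples by name and title.

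GENCODE vM21 gave gene symbols, positions, GC content and transcript lengths (mm10, 53274 of 53379 identifiers matched); the longest protein-coding transcript of each gene set its length for TPM. The members, gene lists and tests were chosen with earlier results of these data known. Genotypes were compared with the quasi-likelihood test of edgeR 4.0.16 in R 4.3.3 on all 4 samples with TMM, filterByExpr at a minimum count of 10, no covariate, 2 residual degrees of freedom, Benjamini-Hochberg adjustment over 18838 genes and a threshold of 0.05. On simulated counts without a GC trend both fits made few false calls. With a GC trend between genotypes added, the uncorrected fit called a large share of unchanged genes and the corrected fit few. That trend was linear in GC content, with none in length, a form that the splines can remove by design. The simulation therefore checks that the correction runs, and cannot tell how well it works on the real libraries. CPM used TMM-scaled library sizes, and the SE is the log2 fold change over the square root of F. With 2 samples against 2, an exact permutation test cannot go below 0.333. The correction fitted, per library, natural splines with 6 degrees of freedom in GC content and log2 length to the deviation of log2 CPM (prior count 2) from the gene mean and entered them as an offset, which also removes any true difference that follows these properties.

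Members given in every sample were, in each complex or role, the 3 with the smallest p and the 1 with the highest TPM, those called in both fits and the isoform pairs; for other lists, the 2 genes with the smallest p. One result under this rule is not reported here. Members named beside these were chosen after their values were seen. For the lists of markers, mitochondrial genome genes and ribosomal proteins, counts and sums or medians alone are given. Alternatives were DESeq2 1.42.0 (size factors and test), limma-voom (limma 3.58.1), no filter, a 5 CPM filter, the replicate block, the correction in several forms and leaving out each sample.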

Additional observations from a re-analysis of the deposited data

How the results depend on the processing

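Member counts were 26 higher and 6 lower with DESeq2 size factors, 32 higher and 8 lower with a 5 CPM filter, 27 higher and 6 lower with limma-voom, 11 higher and 6 lower without a filter and 46 higher and 7 lower with the DESeq2 test. Over all genes the first 3 settings gave 2386 higher and 4039 lower, 2379 higher and 3527 lower, and 2314 higher and 3722 lower. The last 2 gave 1018 higher and 2979 lower, and 3524 higher and 4848 lower, against 2188 higher and 4044 lower in the edgeR test of the report. The correction gave 1076 higher and 579 lower over all genes, and 1234 higher and 893 lower with mean transcript lengths and mean GC content. With the trend fitted on genes of at least 1 CPM, an alternative chosen after seeing the data, it gave 854 higher and 717 lower. The member counts were 14 higher and 5 lower, 15 higher and 4 lower and 11 higher and 5 lower in that order. The 3 corrected sets of medians were 0.34 for all members, -0.005 for the complex I core, 0.51 for accessory subunits, 0.17 for complex III, 0.25 for complex IV and 0.32 for complex V; 0.31 for all members, -0.029 for the complex I core, 0.53 for accessory subunits, 0.29 for complex III, 0.24 for complex IV and 0.24 for complex V; and 0.13 for all members, -0.15 for the complex I core, 0.22 for accessory subunits, -0.047 for complex III, -0.029 for complex IV and -0.015 for complex V. The medians of complexes III, IV and V thus changed sign in the last of these, and that of the complex I core in all 3; the cause was not tested.

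Same-numbered samples are not said to be paired, and their deviations from the genotype means correlated at -0.156 over 18838 genes. With the replicate block there were 2 higher and 4 lower members (Cox4i1 and Cox4i2; Atp5f1, Cox7b, Ndufaf4 and Ndufs1) and 313 higher and 2245 lower genes. With the correction and the replicate block there were 11 higher and 4 lower members and 770 higher and 366 lower genes, with medians of 0.34 for all members, -0.035 for the complex I core, 0.47 for accessory subunits, 0.19 for complex III, 0.26 for complex IV and 0.28 for complex V. A crossed replicate block, added after seeing the data, gave 52 higher and 7 lower members and 3336 higher and 4334 lower genes, and with the correction 21 higher and 5 lower members and 1508 higher and 784 lower genes, with medians of 0.34 for all members, -0.034 for the complex I core, 0.48 for accessory subunits, 0.19 for complex III, 0.26 for complex IV and 0.28 for complex V.

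Leaving out each sample in turn gave 0 to 24 members higher and 0 to 6 lower, and 0 to 2005 genes higher and 0 to 3827 lower; with the correction, 0 to 18 and 0 to 4 members and 0 to 1531 and 0 to 593 genes. The lone sample left is assumed to vary like the other genotype. The medians ranged over 0.45 to 0.90 for all members, 0.33 to 0.93 for the complex I core, 0.56 to 1.16 for accessory subunits, 0.10 to 0.50 for complex I assembly factors, 0.21 to 0.76 for complex III, 0.58 to 1.10 for complex IV, 0.47 to 0.82 for complex V, and with the correction over 0.23 to 0.50 for all members, -0.089 to 0.21 for the complex I core, 0.37 to 0.76 for accessory subunits, 0.23 to 0.66 for complex I assembly factors, 0.039 to 0.38 for complex III, 0.12 to 0.41 for complex IV, 0.13 to 0.43 for complex V.

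The alternatives were fitted over all genes, but single fold changes were compared between settings for 39 named members, not for all 90. Among these the fold changes of 5 called members changed sign in corrected fits, none of them past the threshold, and the cause was not tested. Ndufa11 was at -0.003, with the replicate block -0.012, crossed -0.012, with mean lengths -0.094, from 1 CPM -0.20, and -0.18 to -0.028 in the fits with a sample left out where its sign changed. Atp5g2 was at -0.036, -0.054 with the replicate block, -0.054 crossed, -0.29 from 1 CPM, and -0.27 to -0.14 in the fits with a sample left out where its sign changed. Uqcrb was at 0.17, 0.19 with the replicate block, 0.19 crossed, 0.22 with mean lengths, and 0.34 to 0.53 in the fits with a sample left out where its sign changed. Ndufaf4 was at 0.15 with the replicate block, 0.15 crossed, and 1.03 without wild-type replicate 1. Ndufb7 was at -0.02 from 1 CPM. Over all fits with a sample left out, with and without the correction, the range was -0.18 to 1.06 for Ndufa11, -0.27 to 1.25 for Atp5g2, -1.23 to 0.53 for Uqcrb and -2.37 to 1.03 for Ndufaf4. Depth was alike across libraries, at 82965565 to 86932708 counts, and the 2 samples per genotype limit what can be called.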
